A study of Mus musculus with 21 samples.

Results

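The 10 genes described here encode DNA-binding subunits of the transcription factor NF-kB (Nfkb1, Nfkb2, Rel and Relb), IkB proteins that bind those subunits (Nfkbia, Nfkbie and Nfkbiz), and enzymes that act in the feedback on the pathway (Tnfaip3, Zc3h12a and Birc3). They were chosen by name, with earlier results of these data known. The rows of the deposited count table whose Ensembl identifiers map to these symbols were taken, which gave 10 of 52636 genes. All 10 were counted in every library, from 145 counts (Nfkbie) to 5515 counts (Nfkb2), and all 10 passed the filter on low counts.

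NF-kB is a family of dimers that IkB proteins hold inactive in the cytoplasm. When IL1b or TNF binds its receptor, the IkB kinase marks the IkB proteins for breakdown, and the freed dimers enter the nucleus and switch on inflammatory genes. Among the genes they switch on are those of the IkB proteins, of some subunits and of enzymes such as A20 (Tnfaip3), which limit the signal, so that levels of these transcripts are widely used as a readout of the pathway in fibroblasts and other cells.

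The samples were mouse fibroblasts treated in vitro and labelled as positive for the surface proteins Ly6C and Sca-1, profiled by stranded total RNA sequencing in 7 treatment groups with 3 libraries each. The groups were DMSO (the solvent alone), CHIR, TGFb1, TGFb1 + DMSO, TGFb1 + CHIR, TGFb1 + IL1b and TGFb1 + TNF. TGFb1 is a growth factor that induces matrix genes in fibroblasts, and CHIR is given by that short name only, which commonly stands for an inhibitor of the kinase GSK3. DMSO was the only control without TGFb1, and both inflammatory cytokines were given on top of TGFb1, so no group shows IL1b or TNF alone. Strain, age, doses, times and the origin of the replicates were not given in the sources used here, so the p-values measure the spread between these libraries, which may be technical.

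Library totals ran from 19796379 to 29276382 counts. The 8 fibroblast markers had counts in every group, and their sum, carried by Col1a1 and Col1a2, was lowest in TGFb1 + TNF at 18489 to 19476 CPM (counts relative to library size, scaled by TMM factors) and between 26766 and 57493 CPM in the other groups. Ly6a, which encodes Sca-1, and Ly6c1 were counted in every library, at 6.82 to 146 and 0.556 to 51.7 CPM, and the fibroblast marker Lum ranged from 0 counts in 1 library to 18.7 CPM. The leukocyte genes Ptprc, Adgre1 and Cd3e were at 0 counts in all 21 libraries, and the 11 immune markers summed to between 2.26 ± 0.513 CPM (mean ± SD, n = 3) in CHIR and 6.48 ± 0.360 CPM in TGFb1 + IL1b, led by Csf1r (up to 4.56 CPM) and Cd68 (up to 2.71 CPM). The 7 epithelial markers summed to at most 0.538 CPM in any library. The 5 mesothelial markers were led by Wt1, with Msln at 0 in 20 libraries, and the 6 mural and smooth muscle markers by Pdgfrb, which fibroblasts also use. Of the mural list, Cspg4 (5.89 to 276 CPM) and Notch3 (7.92 to 61.6 CPM) were also counted in every library. Myh11, Rgs5 and Des reached at most 7.79, 4.87 and 3.25 CPM. The 6 endothelial markers, led by Kdr, with Cldn5 at 0 in every library, summed to 5.47 ± 0.848 CPM in TGFb1, 14.2 ± 0.171 in TGFb1 + TNF and 23.9 ± 1.33 in TGFb1 + CHIR. In these bulk samples a change in the number of cells that use a gene and a change in RNA per cell cannot be told apart.

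Levels are given in CPM per library, and as mean ± SD over the 3 libraries of a group where only a group is named. Differences are log2 fold changes with their standard errors from a quasi-likelihood fit over all 21 libraries, and a gene is called higher or lower where its p, adjusted over all 16197 genes tested, is under 0.05. Each count of members called is read against the share of all 16197 genes called in the same comparison.

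Nfkb1 (ENSMUSG00000028163, chr3:135584655-135691547, minus strand on GRCm38) and Nfkb2 (ENSMUSG00000025225, chr19:46304320-46312385, plus strand) each encode a precursor that is processed to a smaller DNA-binding subunit. The unprocessed parts hold the IkB-type ankyrin repeats. Rel (ENSMUSG00000020275, chr11:23736847-23770970, minus strand) and Relb (ENSMUSG00000002983, chr7:19606217-19629438, minus strand) encode subunits that carry their own activation domain, and Relb pairs chiefly with the Nfkb2 product in the non-canonical branch of the pathway. Nfkbia (ENSMUSG00000021025, chr12:55489410-55492647, minus strand) and Nfkbie (ENSMUSG00000023947, chr17:45555703-45563169, plus strand) encode cytoplasmic inhibitors. Nfkbiz (ENSMUSG00000035356, chr16:55811375-55838899, minus strand) encodes an atypical nuclear IkB protein that works as a coactivator at a subset of NF-kB targets. Tnfaip3 (ENSMUSG00000019850, chr10:19000910-19015657, minus strand) encodes a ubiquitin-editing enzyme that shuts off signalling complexes at the receptors. Zc3h12a (ENSMUSG00000042677, chr4:125118423-125127840, minus strand) encodes a ribonuclease that degrades messages of inflammatory genes, and Birc3 (ENSMUSG00000032000, chr9:7848699-7873186, minus strand) a ubiquitin ligase that acts at the TNF receptor. Exons of Nfkb2 overlap those of Psd, a gene on the opposite strand with 248 to 535 counts per library. The strand setting of the counting was not given in the sources used here, so a small part of the Nfkb2 counts is uncertain. How reads shared by Birc3 and its neighbouring paralog Birc2 were counted was not given either.

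To show where the letters of an NF-kB site stand near these genes, promoter windows from RefSeq (GRCm38.p6, from 250 bases before to 50 after each start) were searched on both strands for the NF-kB consensus and for the looser GGGNNNNNCC, which every consensus match also fits. The table held windows for 7 members (10 windows, since Nfkb2 and Tnfaip3 have several starts). Nfkb1, Relb and Nfkbiz were not searched. At least 1 consensus match stood in the windows of 5 members, Nfkb2, Rel, Nfkbia, Nfkbie and Tnfaip3, and none stood in those of Zc3h12a and Birc3. A match stood in a window of 5.14% of all 27025 genes listed by RefSeq there, and in 4.51% of all 32851 windows of the same length. The looser pattern was in all 7 members searched and in 53.5% of all genes. The stretches below are those with a match upstream of the first start. They are printed 5′ to 3′ on the gene's strand with the consensus match in capitals. Where an annotated exon covers bases more than 5 before the start, only 30 bases are shown. Otherwise the stretch ends at the start, or just before an exon that begins within 5 bases of it. A match is a description of the letters, and binding was not measured.
Nfkb2, chr19:46304689-46304718, plus strand: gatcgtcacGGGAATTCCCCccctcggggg
Nfkb2, chr19:46304707-46304736, plus strand: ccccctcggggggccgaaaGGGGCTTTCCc
Rel, chr11:23770971-23771219, minus strand: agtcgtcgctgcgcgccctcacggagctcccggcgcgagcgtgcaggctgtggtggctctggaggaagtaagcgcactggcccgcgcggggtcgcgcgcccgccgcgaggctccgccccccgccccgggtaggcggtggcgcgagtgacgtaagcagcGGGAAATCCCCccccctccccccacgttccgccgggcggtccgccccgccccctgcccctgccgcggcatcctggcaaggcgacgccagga
Nfkbia, chr12:55492648-55492897, minus strand: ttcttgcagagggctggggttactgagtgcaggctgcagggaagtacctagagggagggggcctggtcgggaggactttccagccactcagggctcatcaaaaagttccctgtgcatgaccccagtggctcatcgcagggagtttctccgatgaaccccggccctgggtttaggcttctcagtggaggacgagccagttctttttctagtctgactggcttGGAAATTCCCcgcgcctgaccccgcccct
Nfkbie, chr17:45555450-45555699, plus strand: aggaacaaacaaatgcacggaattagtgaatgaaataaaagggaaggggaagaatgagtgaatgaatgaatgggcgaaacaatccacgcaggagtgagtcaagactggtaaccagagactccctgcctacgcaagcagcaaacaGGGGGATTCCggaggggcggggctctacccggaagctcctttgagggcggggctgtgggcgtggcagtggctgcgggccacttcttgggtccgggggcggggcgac
Tnfaip3, chr10:19015516-19015545, minus strand: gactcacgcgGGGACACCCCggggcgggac
Tnfaip3, chr10:19015411-19015440, minus strand: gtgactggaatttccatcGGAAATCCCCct
The Nfkbia match lay -29 to -20 bases from the start, the nearer Tnfaip3 match -12 to -3 and the nearer Nfkb2 match -11 to -2. Those of Nfkbie (-106 to -97) and Rel (-92 to -82) lay farther upstream. The Nfkbia match and the nearer Tnfaip3 match read on the opposite strand, and the Nfkb2 stretches overlap. In Rel and at the farther Nfkb2 site the capitals cover matches of both strands that overlap.

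**Figure D1:**
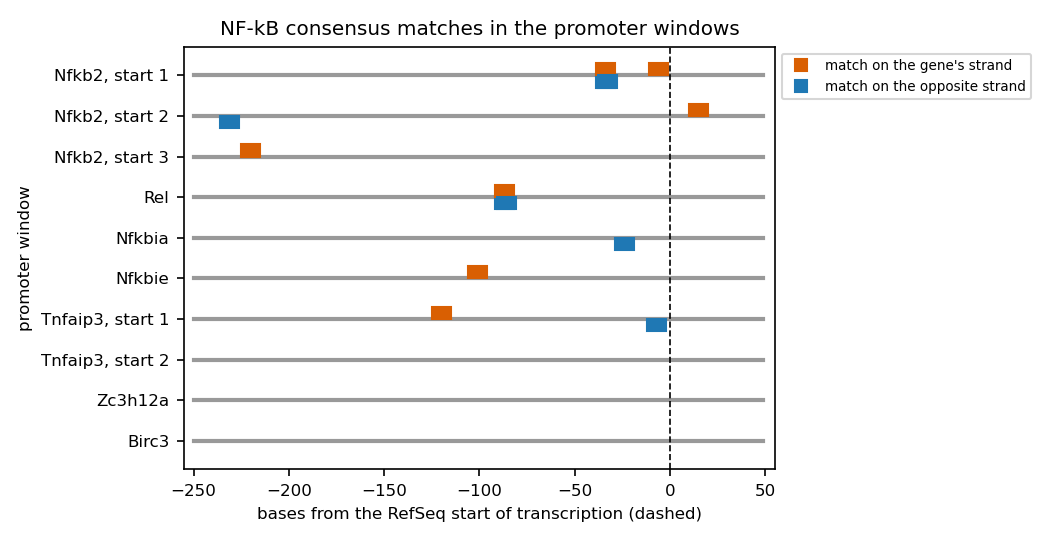
Positions of NF-kB consensus matches (coloured blocks, upper row on the gene's strand, lower row on the opposite strand) in the 10 promoter windows of 7 members (grey lines); the x axis is bases from the RefSeq start of transcription. Matches stood in windows of 5 members, and the lines of Zc3h12a and Birc3 are empty.

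Across the 7 groups the members varied to very different extents. The highest group mean was 15.8 times the lowest for Nfkbiz, 11.6 times for Zc3h12a, 6.63 times for Tnfaip3 and 6.35 times for Nfkbie. It was 4.56 times for Relb and 3.46 times for Nfkbia. For Nfkb1, Nfkb2, Birc3 and Rel it was 2.65, 2.57, 2.04 and 1.99 times. Nfkb1, Nfkb2, Relb, Nfkbie, Tnfaip3 and Birc3 had their highest mean in TGFb1 + TNF. Rel, Nfkbiz and Zc3h12a had theirs in TGFb1 + IL1b, and Nfkbia had its highest mean in DMSO.

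**Figure D2:**
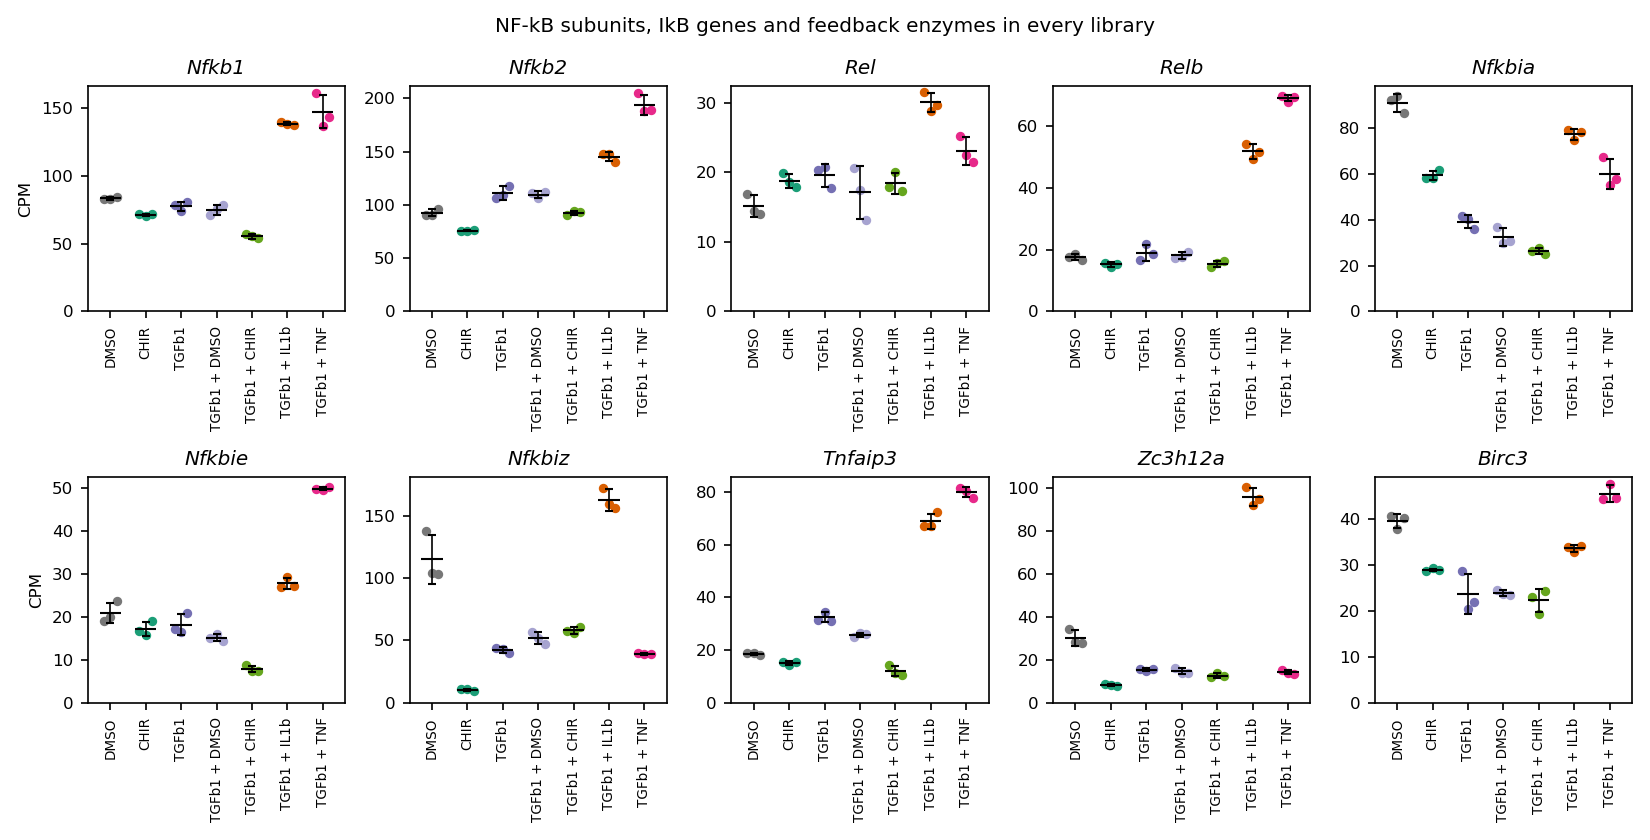
CPM of each member (y axis, from 0) in every library (points) of the 7 groups (x axis), with the mean (long bar) and SD over 3 libraries (error bars). Nfkbiz and Zc3h12a stand high in TGFb1 + IL1b and DMSO and low in CHIR, whereas Relb, Nfkbie and Tnfaip3 stand highest in TGFb1 + TNF.

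Levels of different genes were compared per kilobase of annotated exons, with all exons of a gene merged (12061 bases for Nfkb1 and 1610 for Nfkbia). This length can exceed that of the transcript in use, so the order between genes is approximate. In DMSO, Nfkbia was the most abundant member at 56.5 ± 2.42 CPM per kb, followed by Nfkbiz at 22.9 ± 3.93 and Nfkb2 at 20.2 ± 0.731. Rel was the least abundant at 2.03 ± 0.212 CPM per kb. In TGFb1 + IL1b the levels per kb were 48.1 ± 1.49 for Nfkbia, 33.2 ± 1.47 for Zc3h12a, 32.4 ± 1.74 for Nfkbiz and 31.7 ± 0.881 for Nfkb2. In TGFb1 + TNF, Nfkb2 was the most abundant at 42.3 ± 2.12 CPM per kb, ahead of Nfkbia at 37.3 ± 4.01, and Nfkbiz and Zc3h12a were at 7.80 ± 0.123 and 4.98 ± 0.351.

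IL1b and TNF were compared on the same TGFb1 background to see how the 10 genes responded to each. Against TGFb1, IL1b raised all 10 members, in a comparison in which 34.6% of all genes were called and 17.2% were called higher. TNF raised 7 of 10, where 56.6% of all genes were called and 27.7% were called higher. Rel, Nfkbiz and Zc3h12a did not pass the test with TNF. The median log2 fold change of the members was 0.91 with IL1b and 0.87 with TNF, against 0.0024 and -0.004 over all genes tested. These comparisons share the 3 TGFb1 libraries, so they are given side by side, and the difference between the cytokines was tested directly: 4 members were higher with IL1b (Rel, Nfkbia, Nfkbiz and Zc3h12a), 5 were higher with TNF (Nfkb2, Relb, Nfkbie, Tnfaip3 and Birc3) and Nfkb1 did not pass, where 47.6% of all genes were called.

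**Figure D3:**
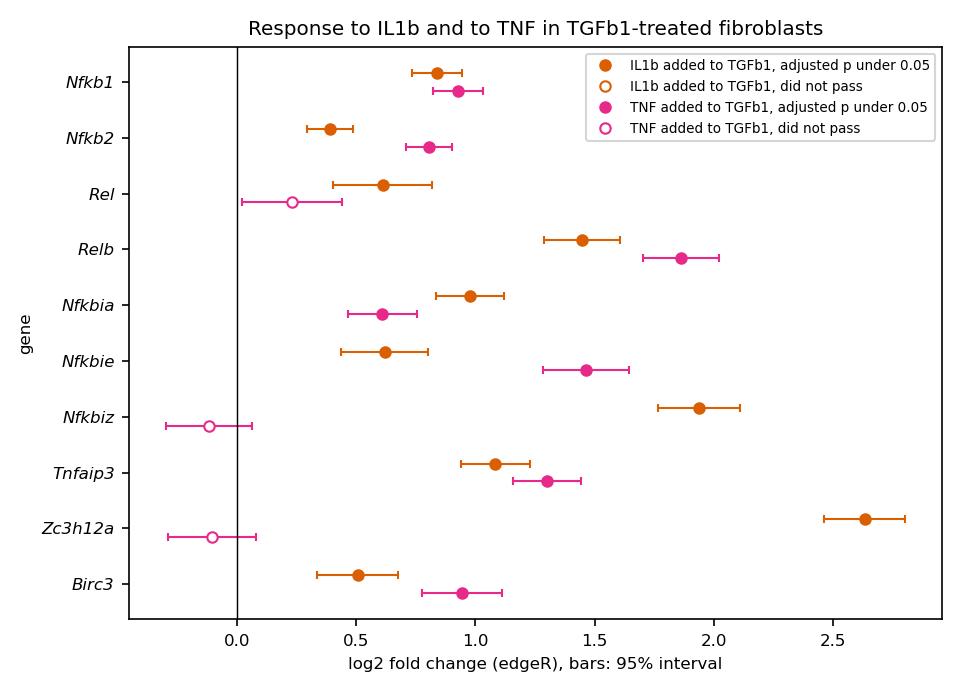
Log2 fold change (x axis, point, with its 95% interval as a bar) of each member (y axis) for IL1b and for TNF added to TGFb1, filled where adjusted p is under 0.05. All 10 IL1b points are filled and right of 0; the TNF points of Rel, Nfkbiz and Zc3h12a are open, and Zc3h12a has the farthest IL1b point at 2.63.

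Among the subunits, Nfkb1 stood at 78.2, 73.8 and 80.6 CPM in the TGFb1 libraries, 139.7, 138 and 138 CPM with IL1b and 161, 137 and 144 CPM with TNF. The groups with a cytokine lay above TGFb1 without overlap. Nfkb1 was 1.79-fold higher with IL1b (log2 fold change 0.84, SE 0.05, adjusted p = 5.59e-19) and 1.90-fold higher with TNF (log2 fold change 0.93, SE 0.05, adjusted p = 1.98e-21). The cytokines overlapped, with a difference of -0.09 (95% interval -0.19 to 0.01, adjusted p = 0.158) that became -0.14 (adjusted p = 0.0378) without replicate 2 of TGFb1 + TNF. Nfkb2, whose precursor the non-canonical branch processes, stood at 106, 109 and 118 CPM in TGFb1, 148, 148 and 141 CPM with IL1b and 205, 188 and 189 CPM with TNF. The 3 groups did not overlap, and TNF libraries were highest. The rise was 1.31-fold with IL1b (log2 fold change 0.39, SE 0.05, adjusted p = 2.15e-09) and 1.75-fold with TNF (log2 fold change 0.81, SE 0.05, adjusted p = 9.83e-21), and the level was 1.33-fold higher with TNF than with IL1b (adjusted p = 1.01e-10).

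Relb, the partner of the Nfkb2 product, had the largest rise of the subunits with either cytokine. Its libraries held 16.6, 21.7 and 18.6 CPM in TGFb1, 54.3, 49.4 and 51.8 CPM with IL1b and 69.996, 67.9 and 69.6 CPM with TNF. No library of one group reached the range of another. The level was 2.72-fold higher with IL1b (log2 fold change 1.45, SE 0.08, adjusted p = 3.82e-21), 3.63-fold higher with TNF (log2 fold change 1.86, SE 0.08, adjusted p = 1.44e-26) and 1.33-fold higher with TNF than with IL1b (adjusted p = 3.29e-06). Rel, which encodes c-Rel, went the other way between the cytokines, with 20.4, 20.7 and 17.7 CPM in TGFb1, 31.5, 28.9 and 29.8 CPM with IL1b and 25.3, 22.4 and 21.5 CPM with TNF. All IL1b libraries lay above all TNF libraries, and these above all TGFb1 libraries. Rel was 1.53-fold higher with IL1b (log2 fold change 0.61, SE 0.10, adjusted p = 3.78e-06) and 1.30-fold higher with IL1b than with TNF (adjusted p = 0.00142). With TNF its log2 difference from TGFb1 was 0.23 (95% interval 0.02 to 0.44, adjusted p = 0.0579). That value passed in 4 of 14 alternatives: at 0.28 (adjusted p = 0.0403) without replicate 3 of TGFb1 + TNF, at 0.43 (adjusted p = 0.000417) against TGFb1 + DMSO, at 0.23 (adjusted p = 0.0468) with no filter and at 0.23 (adjusted p = 0.047) with only these groups fitted.

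The cytoplasmic inhibitors rose with both cytokines, but in opposite order. Nfkbia, the fast-acting IkB alpha gene, held 41.5, 40.2 and 35.9 CPM in the TGFb1 libraries, 79.01, 74.6 and 78.5 CPM with IL1b and 67.3, 55.03 and 57.6 CPM with TNF. The groups were separate, with IL1b on top. It was 1.97-fold higher with IL1b (log2 fold change 0.98, SE 0.07, adjusted p = 1.64e-16), 1.53-fold higher with TNF (log2 fold change 0.61, SE 0.07, adjusted p = 1.97e-10) and 1.29-fold higher with IL1b than with TNF (adjusted p = 9.82e-06). Nfkbie, the gene of IkB epsilon, held 17.2, 16.5 and 20.97 CPM in TGFb1, 26.99, 29.3 and 27.2 CPM with IL1b and 49.8, 49.7 and 50.4 CPM with TNF. Here the TNF libraries were on top and again no groups overlapped. The rise was 1.54-fold with IL1b (log2 fold change 0.62, SE 0.09, adjusted p = 1.9e-07) and 2.76-fold with TNF (log2 fold change 1.46, SE 0.09, adjusted p = 3.85e-20), and Nfkbie was 1.80-fold higher with TNF than with IL1b (adjusted p = 4.48e-12).

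Nfkbiz, the nuclear coactivator, held 44.1, 43.4 and 39.6 CPM in TGFb1, 173, 159 and 156 CPM with IL1b and 39.8, 38.7 and 38.8 CPM with TNF. Every IL1b library was far above the other groups, and the TNF and TGFb1 libraries overlapped. It was 3.83-fold higher with IL1b than in TGFb1 (log2 fold change 1.94, SE 0.08, adjusted p = 3.09e-17) and 4.16-fold higher with IL1b than with TNF (log2 fold change 2.06, SE 0.08, adjusted p = 3.73e-18). The TNF difference from TGFb1 was -0.12 on the log2 scale (95% interval -0.30 to 0.06, adjusted p = 0.262). Set against TGFb1 + DMSO in place of TGFb1, Nfkbiz was lower with TNF, at -0.40 (adjusted p = 0.000199).

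Of the feedback enzymes, Zc3h12a, the ribonuclease, showed the largest response to IL1b of the 10 members. It held 15.7, 14.8 and 15.9 CPM in TGFb1, 100.4, 92.04 and 95.03 CPM with IL1b and 15.5, 14.1 and 13.5 CPM with TNF. As for Nfkbiz, the IL1b libraries stood alone and those of TNF overlapped with TGFb1. Zc3h12a was 6.20-fold higher with IL1b than in TGFb1 (log2 fold change 2.63, SE 0.08, adjusted p = 1.32e-30) and 6.67-fold higher with IL1b than with TNF (log2 fold change 2.74, SE 0.08, adjusted p = 3.74e-32), while the TNF difference from TGFb1 was -0.11 (95% interval -0.29 to 0.08, adjusted p = 0.341). Tnfaip3, the A20 gene, held 31.5, 34.6 and 31.1 CPM in TGFb1, 67.05, 67.1 and 72.2 CPM with IL1b and 81.5, 80.5 and 77.8 CPM with TNF. The 3 groups were separate, the cytokines being much closer to each other than to TGFb1. It was 2.12-fold higher with IL1b (log2 fold change 1.08, SE 0.07, adjusted p = 3.65e-18), 2.46-fold higher with TNF (log2 fold change 1.30, SE 0.07, adjusted p = 4.92e-22) and 1.16-fold higher with TNF than with IL1b (adjusted p = 0.00632). Birc3, the ubiquitin ligase at the TNF receptor, held 28.7, 20.5 and 21.8 CPM in TGFb1, 33.9, 32.8 and 34.2 CPM with IL1b and 44.3, 47.6 and 44.7 CPM with TNF. Replicate 1 of TGFb1 stood above the other TGFb1 libraries, and no groups overlapped. It was 1.42-fold higher with IL1b (log2 fold change 0.51, SE 0.08, adjusted p = 2.78e-06), 1.92-fold higher with TNF (log2 fold change 0.94, SE 0.08, adjusted p = 3.58e-14) and 1.35-fold higher with TNF than with IL1b (adjusted p = 8.98e-06).

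The summed fibroblast markers were 45338 to 47935 CPM in TGFb1, 41439 to 42884 with IL1b and 18489 to 19476 with TNF. Mural and smooth muscle markers summed to 1104 to 1153 CPM in TGFb1, 672 to 708 with IL1b and 504 to 529 with TNF. Mesothelial markers summed to 27.9 to 32.3, 30.3 to 33.2 and 16.01 to 18.1 CPM in the same order. Immune markers summed to 4.17 to 4.46 CPM in TGFb1, 6.16 to 6.86 with IL1b and 2.56 to 3.08 with TNF, with counts for 5, 6 and 5 of 11 markers. The immune sum did not overlap between these groups, and the defining leukocyte gene Ptprc was at 0 in all of their libraries. The endothelial marker sum, given above, was higher with TNF than in TGFb1. Mitochondrial genes took 0.296 to 0.390% of the counts in TGFb1, 0.348 to 0.429% with IL1b and 0.422 to 0.490% with TNF. The part of these sums and shares in the members' values was not tested.

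The effect of TGFb1 itself was read within the solvent, TGFb1 + DMSO against DMSO. With TGFb1, 6 members were lower, namely Nfkb1, all 3 IkB genes, Zc3h12a and Birc3, and 2 were higher, Nfkb2 and Tnfaip3, in a comparison in which 62% of all genes were called. Rel and Relb did not pass. The median log2 fold change of the members was -0.31, against -0.0207 over all genes tested. In the same libraries the fibroblast marker sum was 42872 to 44407 CPM with TGFb1 and 26766 to 27304 CPM without it. The mesothelial sum was 22.1 to 26.7 against 13.3 to 16.7 CPM, the endothelial sum 5.15 to 7.41 against 8.46 to 10.5 CPM, the mural sum 1086 to 1194 against 993 to 1064 CPM and the immune sum 3.37 to 4.57 against 3.08 to 4.26 CPM. Mitochondrial genes took 0.349 to 0.467% of the counts with TGFb1 and 0.561 to 0.591% without it. The part of these values in the members' differences was not tested.

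Nfkbia showed the largest fall. It held 92.2, 94.2 and 86.7 CPM in the DMSO libraries and 36.8, 29.7 and 30.7 CPM with TGFb1 + DMSO, with every TGFb1 library below every DMSO library, a 2.81-fold difference (log2 fold change -1.49, SE 0.07, adjusted p = 1.87e-24). Nfkbiz held 138, 104 and 103 CPM in DMSO, where replicate 1 was highest, and 56.4, 51.7 and 46.97 CPM with TGFb1 + DMSO. The groups were separate and the level with TGFb1 was 2.23-fold lower (log2 fold change -1.15, SE 0.08, adjusted p = 4.52e-13). The third IkB gene, Nfkbie, held 19.1, 20.1 and 23.7 CPM in DMSO and 15.1, 16.1 and 14.5 CPM with TGFb1 + DMSO, again without overlap. It was 1.37-fold lower (log2 fold change -0.46, SE 0.09, adjusted p = 2.93e-05).

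Zc3h12a held 34.3, 28.5 and 27.6 CPM in DMSO, replicate 1 being highest as for Nfkbiz, and 16.3, 14.1 and 13.8 CPM with TGFb1 + DMSO. All TGFb1 libraries were lower, by 2.05-fold on average (log2 fold change -1.04, SE 0.09, adjusted p = 2.01e-15). Birc3 held 40.8, 37.8 and 40.3 CPM in DMSO and 24.6, 23.8 and 23.4 CPM with TGFb1 + DMSO, a separate and 1.65-fold lower group (log2 fold change -0.73, SE 0.08, adjusted p = 7.7e-11). Tnfaip3 went the opposite way, from 18.9, 18.7 and 18.1 CPM in DMSO to 24.8, 26.3 and 25.9 CPM with TGFb1 + DMSO, 1.38-fold higher with no overlap (log2 fold change 0.47, SE 0.08, adjusted p = 7.85e-07).

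The subunits moved less. Nfkb2 held 90.7, 90.4 and 96.4 CPM in DMSO and 111, 106 and 112 CPM with TGFb1 + DMSO and was 1.19-fold higher, without overlap (log2 fold change 0.25, SE 0.05, adjusted p = 1.56e-05). Nfkb1 held 82.6, 82.7 and 84.6 CPM in DMSO and 70.9, 75.4 and 78.3 CPM with TGFb1 + DMSO, 1.11-fold lower (log2 fold change -0.15, SE 0.05, adjusted p = 0.0103). This call for Nfkb1 was lost in 4 of 14 alternatives: at -0.11 (adjusted p = 0.0814) with TGFb1 without solvent, at -0.12 (0.0793) with no filter, at -0.12 (0.0693) without replicate 3 of DMSO and at -0.11 (0.0903) without replicate 1 of TGFb1 + DMSO. Relb, at 17.5, 18.5 and 16.7 CPM in DMSO and 17.3, 17.7 and 19.4 CPM with TGFb1 + DMSO, overlapped between groups and differed by 0.04 (95% interval -0.13 to 0.21, adjusted p = 0.674). Rel held 16.9, 14.5 and 13.99 CPM in DMSO and 20.7, 17.5 and 13.2 CPM with TGFb1 + DMSO, where the libraries were spread most widely, and differed by 0.17 (95% interval -0.04 to 0.39, adjusted p = 0.159). It passed at 0.35 (adjusted p = 0.00363) without replicate 3 of TGFb1 + DMSO and at 0.38 (adjusted p = 0.00217) with TGFb1 without solvent.

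CHIR was given without and with TGFb1, which allows its effect to be read in each setting. Without TGFb1, CHIR lowered 9 of the 10 members and raised Rel, where 44.8% of all genes were called and 22.7% were called lower. With TGFb1, 6 members were lower and none higher, where 43.3% of all genes were called and 22.5% were called lower. The members that did not pass with TGFb1 were Rel, Nfkbiz, Zc3h12a and Birc3. The interaction, the CHIR effect with TGFb1 less the CHIR effect without it, was called for 7 members, 4 higher and 3 lower, where 41.2% of all genes were called. The median log2 fold change of the members was -0.29 without TGFb1 and -0.24 with it, against -0.0141 and 0 over all genes tested.

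**Figure D4:**
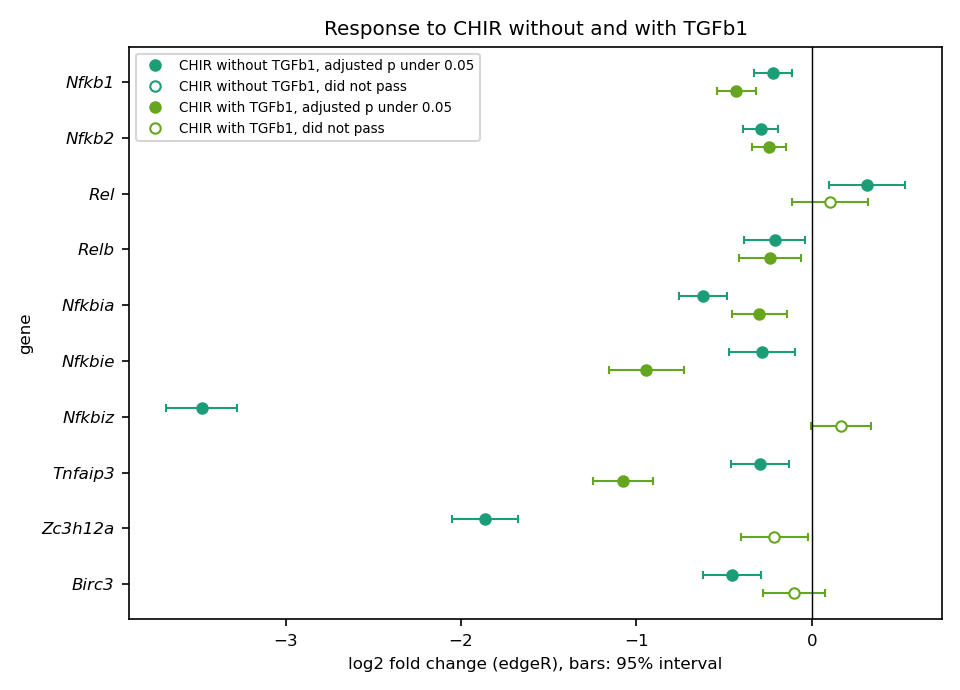
Log2 fold change (x axis, point, with its 95% interval as a bar) of each member (y axis) for CHIR against its solvent control without and with TGFb1, filled where adjusted p is under 0.05. Nfkbiz lies at -3.48 without TGFb1 and at 0.17 with it; Tnfaip3 and Nfkbie lie farther left with TGFb1 than without.

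Nfkbiz, an atypical IkB protein of the nucleus, had the largest difference of any member between CHIR and DMSO. It held 10.7, 10.7 and 9.45 CPM in the CHIR libraries against 138, 104 and 103 CPM in DMSO, with a wide gap between the groups, and was 11.1-fold lower (log2 fold change -3.48, SE 0.10, adjusted p = 6.69e-22). With TGFb1 it held 57.3, 55.9 and 60.8 CPM with CHIR against 56.4, 51.7 and 46.97 CPM with the solvent, groups that overlapped. The difference with TGFb1 was 0.17 (95% interval -0.01 to 0.34, adjusted p = 0.119), and the interaction was 3.64 (SE 0.13, adjusted p = 2.52e-19). The difference with TGFb1 passed at 0.23 (adjusted p = 0.0427) without replicate 1 of TGFb1 + DMSO and at 0.17 (0.034) with only these groups fitted. Read the other way, TGFb1 + CHIR stood 5.62-fold above CHIR for this gene (log2 fold change 2.49, SE 0.10, adjusted p = 9.54e-19), whereas TGFb1 + DMSO stood below DMSO.

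Zc3h12a held 8.83, 8.33 and 7.65 CPM with CHIR and 34.3, 28.5 and 27.6 CPM in DMSO, groups that did not overlap, and was 3.64-fold lower (log2 fold change -1.86, SE 0.09, adjusted p = 3.74e-23). With TGFb1 it held 12.01, 13.8 and 12.3 CPM with CHIR and 16.3, 14.1 and 13.8 CPM with the solvent, which overlapped. Its difference there was -0.21 (95% interval -0.40 to -0.02, adjusted p = 0.0625) and the interaction 1.65 (SE 0.13, adjusted p = 4.42e-15). The difference with TGFb1 passed in 4 of 13 alternatives, at -0.28 (adjusted p = 0.0333) without replicate 2 of TGFb1 + CHIR, -0.26 (0.0399) without replicate 3 of TGFb1 + DMSO, -0.24 (0.0356) with a filter of 1 CPM in 3 libraries and -0.24 (0.0369) with mitochondrial genes left out. As for Nfkbiz, TGFb1 + CHIR stood above CHIR for Zc3h12a, by 1.53-fold (log2 fold change 0.61, SE 0.10, adjusted p = 7.81e-07).

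Tnfaip3 and Nfkbie showed the reverse pattern, a larger CHIR effect with TGFb1. Tnfaip3 held 15.6, 14.4 and 15.4 CPM with CHIR against 18.9, 18.7 and 18.1 CPM in DMSO, and 14.3, 11.5 and 10.4 CPM with TGFb1 + CHIR against 24.8, 26.3 and 25.9 CPM with TGFb1 + DMSO. The groups were separate in each setting. CHIR lowered it 1.23-fold without TGFb1 (log2 fold change -0.30, SE 0.08, adjusted p = 0.0025) and 2.11-fold with TGFb1 (log2 fold change -1.08, SE 0.08, adjusted p = 7.82e-16), with an interaction of -0.78 (adjusted p = 2.46e-07). Nfkbie held 16.7, 15.9 and 19.04 CPM with CHIR against 19.1, 20.1 and 23.7 CPM in DMSO, a narrow separation, and 8.75, 7.46 and 7.38 CPM with TGFb1 + CHIR against 15.1, 16.1 and 14.5 CPM with TGFb1 + DMSO, a wide one. It was 1.22-fold lower without TGFb1 (log2 fold change -0.29, SE 0.09, adjusted p = 0.00983) and 1.92-fold lower with it (log2 fold change -0.94, SE 0.11, adjusted p = 1.16e-10), with an interaction of -0.66 (adjusted p = 0.000137). The Nfkbie call without TGFb1 was lost without replicate 2 of CHIR, at -0.23 (adjusted p = 0.0725), and without replicate 3 of DMSO, at -0.19 (0.128).

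Nfkbia held 58.3, 58.1 and 61.6 CPM with CHIR against 92.2, 94.2 and 86.7 CPM in DMSO, and 26.5, 27.5 and 24.9 CPM with TGFb1 + CHIR against 36.8, 29.7 and 30.7 CPM with TGFb1 + DMSO. In each setting the CHIR libraries were below the solvent libraries. It was 1.53-fold lower without TGFb1 (log2 fold change -0.62, SE 0.07, adjusted p = 7.33e-11) and 1.23-fold lower with it (log2 fold change -0.30, SE 0.08, adjusted p = 0.00115), and the interaction was 0.32 (adjusted p = 0.00991). Birc3 held 28.6, 29.2 and 28.9 CPM with CHIR against 40.8, 37.8 and 40.3 CPM in DMSO, a fall of 1.37-fold without overlap (log2 fold change -0.45, SE 0.08, adjusted p = 7.77e-06). With TGFb1 it held 23.01, 19.4 and 24.4 CPM with CHIR and 24.6, 23.8 and 23.4 CPM with the solvent, overlapping, with a difference of -0.10 (95% interval -0.28 to 0.07, adjusted p = 0.374). The Birc3 interaction of 0.35 (adjusted p = 0.0158) was lost without replicate 3 of TGFb1 + CHIR, at 0.29 (adjusted p = 0.0681).

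The precursor genes fell with CHIR in both settings. Nfkb1 held 72.05, 70.5 and 71.5 CPM with CHIR and 57.4, 55.2 and 53.8 CPM with TGFb1 + CHIR, each group below its solvent control given above. It was 1.17-fold lower without TGFb1 (log2 fold change -0.22, SE 0.05, adjusted p = 0.000468) and 1.35-fold lower with it (log2 fold change -0.43, SE 0.05, adjusted p = 3.5e-09). Its interaction of -0.21 (adjusted p = 0.025) was lost at -0.20 (adjusted p = 0.0507) without replicate 1 of CHIR, -0.18 (0.0683) without replicate 3 of TGFb1 + CHIR and -0.18 (0.0755) without replicate 3 of TGFb1 + DMSO. Nfkb2 held 75.3, 75.2 and 76.1 CPM with CHIR and 90.7, 93.9 and 93.3 CPM with TGFb1 + CHIR, again below the controls. It was 1.22-fold lower without TGFb1 (log2 fold change -0.29, SE 0.05, adjusted p = 1.93e-06) and 1.18-fold lower with it (log2 fold change -0.24, SE 0.05, adjusted p = 3.97e-05), and the interaction was 0.05 (95% interval -0.09 to 0.19, adjusted p = 0.624).

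The last subunits are Relb and Rel. Relb held 15.8, 14.4 and 15.4 CPM with CHIR and 14.3, 15.7 and 16.3 CPM with TGFb1 + CHIR, just below the solvent libraries. The log2 fold changes were -0.21 (adjusted p = 0.0414) without TGFb1 and -0.24 (adjusted p = 0.0224) with it. Without TGFb1 the Relb call was lost in 9 of 13 alternatives, DESeq2, limma voom and RLE factors among them. Leaving out replicate 2 or 3 of CHIR or replicate 1 or 2 of DMSO gave -0.18, -0.22, -0.22 and -0.17 (adjusted p = 0.159, 0.0634, 0.0676 and 0.157). With TGFb1 it was lost at -0.18 (0.154) without replicate 1 of TGFb1 + CHIR and at -0.19 (0.114) without replicate 3 of TGFb1 + DMSO. Rel held 19.9, 18.7 and 17.9 CPM with CHIR, all above DMSO, and 17.9, 20.1 and 17.3 CPM with TGFb1 + CHIR, within the range of TGFb1 + DMSO. It was 1.24-fold higher without TGFb1 (log2 fold change 0.31, SE 0.11, adjusted p = 0.0149), a call lost without replicate 1 of CHIR (0.27, adjusted p = 0.0755) and without replicate 2 (0.28, 0.0649) or 3 (0.27, 0.0727) of DMSO. With TGFb1 its difference was 0.10 (95% interval -0.11 to 0.32, adjusted p = 0.473). The Rel interaction was -0.21 (95% interval -0.52 to 0.10, adjusted p = 0.293) and passed without replicate 3 of TGFb1 + DMSO, at -0.37 (0.0323).

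Between CHIR and TGFb1 + CHIR, 3 members were higher with TGFb1 (Nfkb2, Nfkbiz and Zc3h12a) and 5 lower (Nfkb1, Nfkbia, Nfkbie, Tnfaip3 and Birc3), where 66.2% of all genes were called. Rel and Relb did not pass, with 95% intervals of -0.25 to 0.18 and -0.16 to 0.20. Mitochondrial genes took 0.962 to 1.17% of the counts in CHIR, 0.561 to 0.591% in DMSO, 0.479 to 0.567% in TGFb1 + CHIR and 0.349 to 0.467% in TGFb1 + DMSO. With mitochondrial genes left out, no member call of CHIR against DMSO changed, and in TGFb1 + CHIR against TGFb1 + DMSO Zc3h12a became called (-0.24, adjusted p = 0.0369). The endothelial marker sum was 22.4 to 24.9 CPM in TGFb1 + CHIR and 5.15 to 7.41 CPM in TGFb1 + DMSO, the fibroblast sum 51378 to 57493 and 42872 to 44407, the mesothelial sum 16.6 to 17.98 and 22.1 to 26.7 and the mural sum 902 to 922 and 1086 to 1194. Without TGFb1 the fibroblast sum was 30793 to 33857 CPM in CHIR and 26766 to 27304 in DMSO, the mesothelial sum 8.64 to 9.93 and 13.3 to 16.7, the mural sum 1264 to 1299 and 993 to 1064 and the immune sum 1.71 to 2.73 and 3.08 to 4.26. Their part in the CHIR values was not tested.

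The solvent in TGFb1-treated cells was a check on the controls. TGFb1 + DMSO and TGFb1 differed in 3 of 10 members, where 6.13% of all genes were called: Tnfaip3 and Nfkbia were lower with the solvent and Nfkbiz higher. Tnfaip3 was 1.26-fold lower without overlap (log2 fold change -0.34, SE 0.07, adjusted p = 0.00245). Nfkbia was 1.21-fold lower with libraries that overlapped (log2 fold change -0.28, SE 0.07, adjusted p = 0.0121), and Nfkbiz 1.22-fold higher (log2 fold change 0.28, SE 0.09, adjusted p = 0.0464). The Nfkbia call was lost without replicate 1 (-0.24, adjusted p = 0.0912) or 2 (-0.26, 0.0518) of TGFb1 and without replicate 2 (-0.22, 0.119) or 3 (-0.24, 0.0815) of TGFb1 + DMSO. The Nfkbiz call was lost in 8 of 13 alternatives, among them those without replicate 1, 2 or 3 of TGFb1 (0.31, 0.30 and 0.24, adjusted p = 0.097, 0.088 and 0.165) and without replicate 1 or 2 of TGFb1 + DMSO (0.22 and 0.28, adjusted p = 0.203 and 0.121). The other 7 did not pass, and their 95% intervals lay between -0.44 and 0.19. For each of the 10 members the solvent difference was smaller in size than the IL1b difference. It was smaller than the TNF difference for 9 of 10, and for Nfkbiz it was larger (0.28 against -0.12).

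Against DMSO, the only control without TGFb1, the groups with a cytokine differ in TGFb1 and in the solvent as well. TGFb1 + IL1b was higher than DMSO for 8 members and lower for Nfkbia and Birc3, where 67.9% of all genes were called. TGFb1 + TNF was higher for 7 members and lower for Nfkbia, Nfkbiz and Zc3h12a, where 73.6% were called. Tnfaip3 stood farthest above DMSO, at 1.89 with IL1b and 2.10 with TNF on the log2 scale, followed by Zc3h12a with IL1b at 1.67 and Relb with TNF at 1.98. Nfkbia stayed below DMSO with either cytokine, at -0.23 (adjusted p = 0.00177) and -0.60 (adjusted p = 3.27e-11). Nfkbiz was at 0.50 with IL1b and -1.56 with TNF. Birc3 was at -0.23 with IL1b (adjusted p = 0.00945) and 0.20 with TNF (adjusted p = 0.0205). The TNF call for Birc3 was lost without replicate 2 of DMSO (0.17, adjusted p = 0.0875), without replicate 2 of TGFb1 + TNF (0.17, 0.0838) and with DESeq2 (0.19, 0.0546).

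When the groups were put in order of mean level for each member, 36 of 60 neighbouring pairs were called different by the same test. The pairs were set by sorting these same means, so the count only describes the order. Among the contrasts given above, the share of all genes called ran from 6.13% (TGFb1 + DMSO against TGFb1) to 73.6% (TGFb1 + TNF against DMSO). For Nfkb2, Relb and Tnfaip3 the order began with TNF, then IL1b, then TGFb1, each step being called. For Tnfaip3 all 6 steps down to TGFb1 + CHIR were called. For Nfkb1 the step from TNF to IL1b was not called, nor were those from DMSO through TGFb1 and TGFb1 + DMSO to CHIR, and TGFb1 + CHIR was lowest. Rel showed a called step only from IL1b to TNF, and the steps from TNF down through TGFb1, CHIR, TGFb1 + CHIR and TGFb1 + DMSO to DMSO were not called. For Nfkbia the order was DMSO, IL1b, TNF, CHIR, TGFb1, TGFb1 + DMSO and TGFb1 + CHIR, and the step from TNF to CHIR was not called. Nfkbiz ran from IL1b and DMSO through TGFb1 + CHIR, TGFb1 + DMSO, TGFb1 and TNF to CHIR, and the steps from TGFb1 + CHIR to TGFb1 + DMSO and from TGFb1 to TNF were not called. Zc3h12a had called steps from IL1b to DMSO, from DMSO to TGFb1 and from TGFb1 + CHIR to CHIR, with no called step among the 4 groups between. Birc3 fell in called steps from TNF to DMSO, IL1b, CHIR and TGFb1 + DMSO. Nfkbie fell in called steps from TNF to IL1b, DMSO and TGFb1, and again from TGFb1 + DMSO to TGFb1 + CHIR.

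Over the 21 libraries, which share groups and depth, pairs of members are given by their Pearson r, as a description with no test. Among Nfkb1, Nfkb2, Relb, Nfkbie and Tnfaip3 r of log2 CPM ran from 0.764 for Nfkb2 with Nfkbie to 0.945 for Nfkb1 with Relb. It was 0.853 for Nfkbiz with Zc3h12a. Nfkbie with Birc3, at 0.81, was closer than the lowest of the pairs named first. The weakest pair was Nfkbie with Nfkbiz at 0.0981. Nfkbia was closest to Birc3, at 0.791, and Rel to Relb, at 0.717.

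**Figure D5:**
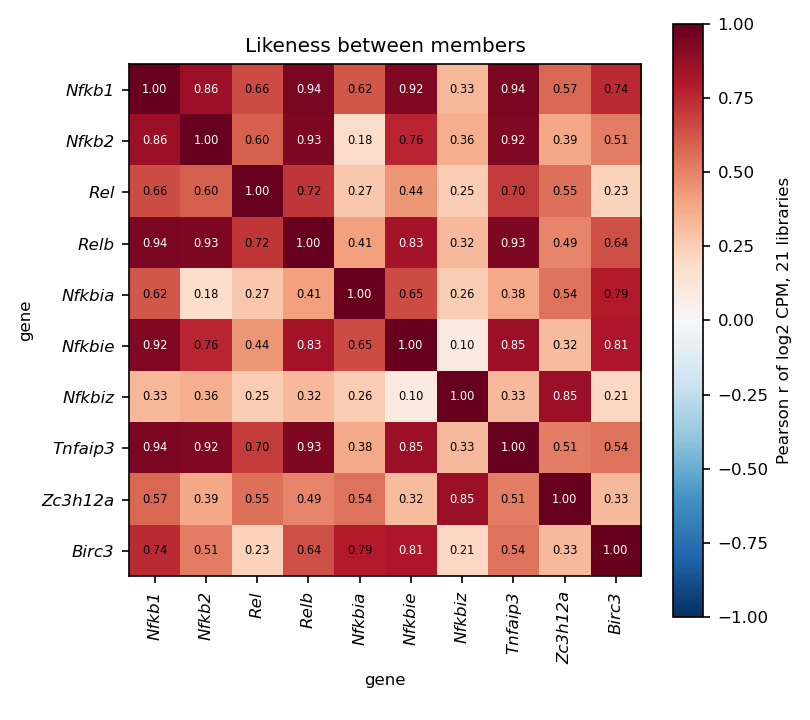
Pearson r of log2 CPM over 21 libraries between members (rows and columns; colour scale from -1 to 1). The block of Nfkb1, Nfkb2, Relb, Nfkbie and Tnfaip3 is dark and the row of Nfkbiz is pale except for Zc3h12a at 0.853.

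The genes searched had a mean log2 CPM of 2 or more and no predicted, clone or RIKEN name. Among these 9957 genes, the 3 most like each member by Pearson r over the 21 libraries were listed. For Nfkb1 they were Ereg (0.969), Gdf15 (0.966) and G6pdx (0.962), for Nfkb2 Ttc39c (0.983), Tcof1 (0.982) and Creb5 (0.976), for Relb Cep162 (0.986), Tspyl4 (0.979) and Stambpl1 (0.976) and for Rel Nfe2l1 (0.86), Sdc1 (0.845) and Casp4 (0.834). Those of Nfkbia were led by Cyld, which encodes a deubiquitinating enzyme that restrains the same pathway, and were Cyld (0.958), Ncald (0.951) and Elmsan1 (0.948). Nfkbie was most like Map2k6 (0.97), Itga6 (0.966) and Mfhas1 (0.965). Nfkbiz was most like Trib1 (0.942), Hes1 (0.924) and Mmab (0.901), of which Hes1 encodes a transcriptional repressor known as a Notch target. Tnfaip3 was most like Rhbdf2 (0.981), Apobec1 (0.977) and Thsd7a (0.977). For Zc3h12a, as for Rel, the values were below those of the other members, with Rabac1 (0.864), Cebpd (0.857) and Ccl7 (0.854), of which Ccl7 encodes a chemokine. Birc3 was most like Ttc7b (0.951), Hhip (0.95) and Arrb2 (0.927).

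The other genes of the pathway give the setting for the members. Their counts are read against all genes tested: with IL1b 34.6% were called and 17.2% called higher, and with TNF 56.6% and 27.7%. Of 4 other subunit and IkB genes, 3 were higher with IL1b and 1 did not pass, with a median log2 fold change of 0.51. With TNF 2 were higher, 1 was lower and 1 did not pass, with a median of 0.25. Bcl3, an atypical IkB gene, was higher with IL1b (24.4 ± 0.380 against 15.6 ± 2.001 CPM, log2 fold change 0.64, adjusted p = 1.17e-06) and lower with TNF (11.9 ± 0.884 against 15.6 ± 2.001 CPM, log2 fold change -0.39, adjusted p = 0.00157). Nfkbib, the IkB beta gene, was higher with IL1b (20.1 ± 1.10 against 15.4 ± 2.32 CPM, log2 fold change 0.37, adjusted p = 0.0069) and with TNF (30.2 ± 0.296 against 15.4 ± 2.32 CPM, log2 fold change 0.96, adjusted p = 1.01e-10). Rela, which encodes the main activating subunit, was higher with TNF (120.2 ± 5.25 against 92.8 ± 2.91 CPM, log2 fold change 0.37, adjusted p = 2.42e-08). Its difference with IL1b, named here after its value was seen, was 0.16 (adjusted p = 0.0155).

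Of 22 other feedback regulators, 12 were higher, 4 lower and 6 did not pass with IL1b, where 34.6% of all genes were called. The counts with TNF were also 12, 4 and 6, where 56.6% of all genes were called. The medians were 0.20 and 0.25. Tnip3, an A20-binding protein gene, had 0 counts in TGFb1 and 0.278 ± 0.0173 CPM with IL1b, at least 6.80-fold higher against a floor of 3 counts over the group. With TNF it was at 0.847 ± 0.165 CPM, at least 20.8-fold higher. Traf1, an adaptor gene, was at 0.0128 CPM in TGFb1, at 0.313 ± 0.183 CPM with IL1b and at 2.93 ± 0.925 CPM with TNF. Zfp36, the gene of the RNA-decay protein tristetraprolin, was lower with IL1b (37.2 ± 2.78 against 49.04 ± 8.42 CPM, log2 fold change -0.40, adjusted p = 0.0294) and TNF (27.1 ± 2.99 against 49.04 ± 8.42 CPM, log2 fold change -0.85, adjusted p = 5.64e-05). Pdlim2, which promotes the breakdown of nuclear NF-kB, was also lower with IL1b (22.2 ± 0.889 against 33.6 ± 2.11 CPM, log2 fold change -0.60, adjusted p = 2.99e-08) and TNF (10.1 ± 0.612 against 33.6 ± 2.11 CPM, log2 fold change -1.73, adjusted p = 3.08e-23). Tnip1, named here after its values were seen, was higher with IL1b (71.8 ± 1.74 against 43.5 ± 1.52 CPM, log2 fold change 0.72, adjusted p = 1.79e-14) and TNF (104.6 ± 9.34 against 43.5 ± 1.52 CPM, log2 fold change 1.27, adjusted p = 1.39e-24).

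Of 25 inflammatory targets 24 were tested. With IL1b 19 were higher, 3 lower and 2 did not pass (median 1.79), where 34.6% of all genes were called and 17.2% called higher. With TNF 17 were higher, 3 lower and 4 did not pass, where 56.6% of all genes were called and 27.7% called higher. The median was 1.43, or 0.97 if a bound stands in for genes with a group at 0. Csf2, the gene of the colony-stimulating factor GM-CSF, had 0 counts in TGFb1. It was at 3.96 ± 0.786 CPM with IL1b and 10.3 ± 1.71 CPM with TNF, at least 96.7-fold and 253-fold higher. The chemokine gene Cxcl5 had 0 counts in TGFb1 and 7.81 ± 1.66 CPM with IL1b, at least 191-fold higher. Mmp3, a matrix protease gene, was lower with IL1b (39.6 ± 5.72 against 69.3 ± 7.79 CPM, log2 fold change -0.81, adjusted p = 0.000113) and TNF (16.95 ± 2.87 against 69.3 ± 7.79 CPM, log2 fold change -2.04, adjusted p = 3.32e-09).

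Within the solvent, TGFb1 lowered 14 of 24 inflammatory targets tested and raised 5, with a median of -1.08 (-0.65 with those bounds). In that comparison 62% of all genes were called. Without TGFb1, CHIR lowered 10 and raised 4 (-0.65, or -0.44), and with TGFb1 it lowered 12 and raised 4 (median -0.49). Of all genes, 44.8% were called without TGFb1 (22.7% lower) and 43.3% with it (22.5% lower). Il6, whose message the Zc3h12a product is known to degrade and whose gene the Nfkbiz product is known to activate, was lower with CHIR (0.162 ± 0.0598 against 9.96 ± 0.943 CPM, log2 fold change -5.90, adjusted p = 1.15e-25). Zfp36 was lower with TGFb1 (51.6 ± 4.42 against 1422 ± 162 CPM, log2 fold change -4.79, adjusted p = 1.05e-14) and with CHIR (34.96 ± 2.04 against 1422 ± 162 CPM, log2 fold change -5.35, adjusted p = 1.25e-14).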

How the data were processed

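Stranded total RNA libraries of mouse Ly6C+/Sca-1+ fibroblasts were analysed in 7 groups of 3. The values are raw counts per gene as deposited by the authors in a table of 52636 genes by 21 libraries; tools, versions, strand setting and filters of the alignment and counting were not given in the sources used here. Builds named in the submitters' processing notes are GRCh38 and GRCm38, with no role. Each of the 21 tables of a single library was checked and held the same values as its column, and 0 pairs of libraries were identical. Symbols, positions and exon lengths came from GENCODE M21 on GRCm38, which names 52489 of the identifiers, and promoter windows from RefSeq (GRCm38.p6).

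Genes passing filterByExpr (16197) were tested with edgeR 4.0.16 in R 4.3.3: TMM factors, 1 coefficient per group over all 21 libraries, robust quasi-likelihood F-tests, and Benjamini-Hochberg adjustment over the genes tested with a threshold of 0.05. Standard errors were computed as the absolute log2 fold change divided by the square root of F, and 95% intervals from them with the t distribution. CPM uses TMM-scaled library sizes. Likeness used log2 CPM with a prior count of 2. For a gene at 0 in a group the fold is a lower bound, with the group taken at 3 counts; floors and intervals cover counting error or the spread between libraries only. Alternatives used DESeq2 1.42.0, limma 3.58.1 and other settings described in the closing section. All members are named; of each other list, the rule allows up to 2 called genes at either end of the log2 fold changes, and some of these are given. Members and lists were chosen with earlier results of these data known. Protein levels and binding were not analysed here.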

Additional observations from a re-analysis of the deposited data

Results flagged for a closer look

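The effect of CHIR on 7 members differed between cells with and without TGFb1, by a test of the interaction term in the fit over all libraries. With the effect without TGFb1 taken from the effect with it, the difference was 3.64 on the log2 scale for Nfkbiz, 1.65 for Zc3h12a, 0.35 for Birc3 and 0.32 for Nfkbia. Of these Nfkbia was called lower with CHIR in the presence of TGFb1 as well; Zc3h12a, Birc3 and Nfkbiz did not pass there, and Nfkbiz held the higher mean with CHIR (58.01 against 51.7 CPM). The difference was -0.78 for Tnfaip3, -0.66 for Nfkbie and -0.21 for Nfkb1, which were more lowered with TGFb1. For Nfkb2, Rel and Relb the term did not pass. Of all genes tested 41.2% had a called term. Groups of 3 libraries are too small for the test of single outlying samples, which was not run.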

How the results depend on the processing

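Each comparison was refitted with other tests (DESeq2, limma voom), with RLE factors, without and with a stricter filter, without mitochondrial genes, on its own groups alone, with the other TGFb1 control where there is one, and without each library in turn. Of 1520 member values under these alternatives 1466 kept their direction and side of the threshold, 39 lost the call, 15 gained it and 0 reversed. Of 110 member results 93 kept their call under every alternative run, and those that did not are given with their values beside the results, with these exceptions. Relb in CHIR against DMSO was also lost with DESeq2 (-0.20), limma voom (-0.21), RLE factors (-0.20), no filter (-0.21) and its own groups alone (-0.22). Nfkbiz in TGFb1 + DMSO against TGFb1 was also lost with limma voom (0.28), RLE factors (0.27) and mitochondrial genes left out (0.28). In the solvent comparison, leaving out a library moved the members called from 3 to between 1 and 2, and the genes called from 993 to between 646 and 884. No other count of members or genes called moved by over 1.5 times. The other genes of the pathway were not refitted under the alternatives. No paired analysis was possible because the labels give no replicate numbers that groups share; the numbers used here follow the order of the records.

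With 3 libraries a group and a common biological coefficient of variation of 0.0581, the smallest member difference called was -0.15 (Nfkb1, TGFb1 + DMSO against DMSO). A member that did not pass is not shown to be unchanged. Cytoplasmic and nuclear protein levels, which carry much of the regulation of NF-kB, were not measured.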

Other observations

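The receptors and adaptors upstream of the members were counted against all genes tested, of which 34.6% were called with IL1b and 56.6% with TNF. Of 14 listed 13 were tested, and with IL1b 1 was higher, 6 lower and 6 did not pass (median -0.12). With TNF 1 was higher, 8 were lower and 4 did not pass (median -0.34). Il1rap, the accessory chain of the IL1 receptor, was the gene that rose, with IL1b (38.98 ± 1.65 against 18.7 ± 2.45 CPM, log2 fold change 1.05, adjusted p = 8.42e-16) and with TNF (54.02 ± 1.96 against 18.7 ± 2.45 CPM, log2 fold change 1.52, adjusted p = 7.07e-23). Il1rn, the receptor antagonist gene, was lower with IL1b (57.4 ± 3.998 against 177 ± 24.99 CPM, log2 fold change -1.63, adjusted p = 2.16e-09) and TNF (28.4 ± 1.48 against 177 ± 24.99 CPM, log2 fold change -2.64, adjusted p = 2.25e-12). TGFb1 within the solvent lowered Il1r1, the signalling receptor of IL1 (43.2 ± 3.61 against 208 ± 3.57 CPM, log2 fold change -2.27, adjusted p = 5.21e-35), and Il1rap (18.01 ± 1.59 against 50.9 ± 4.20 CPM, log2 fold change -1.50, adjusted p = 6.03e-23), and raised Irak2, a kinase-like adaptor gene (56.1 ± 1.28 against 25.8 ± 2.02 CPM, log2 fold change 1.12, adjusted p = 3.28e-20). With CHIR and no TGFb1, 6 of the 13 were higher, 4 lower and 3 did not pass, where 44.8% of all genes were called.

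A list of 11 genes held kinases and partners in their complexes, of which Ikbkg, Tab1, Tab2 and Tab3 do not encode kinases. In it 4 were higher, 2 lower and 5 did not pass with IL1b (median 0.13). With TNF the counts were 4, 4 and 3 (median 0.02), beside the same 34.6% and 56.6% of all genes called. Map3k14, the kinase that starts the non-canonical branch through the Nfkb2 precursor, was lower with IL1b (32.2 ± 1.47 against 63.5 ± 2.42 CPM, log2 fold change -0.98, adjusted p = 5.7e-17) and with TNF (30.7 ± 3.62 against 63.5 ± 2.42 CPM, log2 fold change -1.05, adjusted p = 1.15e-18). Map3k14 was also lower with CHIR in the presence of TGFb1 (25.7 ± 1.13 against 55.2 ± 1.67 CPM, log2 fold change -1.10, adjusted p = 1.49e-18). Its difference with CHIR without TGFb1, named here after its value was seen, was -0.38 (46.5 ± 3.52 against 60.5 ± 2.34 CPM, adjusted p = 5.79e-06). Chuk, an IkB kinase gene, was higher with TNF (97.1 ± 1.56 against 58.6 ± 4.93 CPM, log2 fold change 0.73, adjusted p = 1.9e-14). Its difference with IL1b, named here after its value was seen, was 0.28 (adjusted p = 0.000442). Tab2, an adaptor of the upstream kinase complex, was higher with IL1b (272 ± 12.2 against 192 ± 3.52 CPM, log2 fold change 0.50, adjusted p = 1.3e-14) and TNF (301 ± 4.35 against 192 ± 3.52 CPM, log2 fold change 0.65, adjusted p = 2.64e-19). Map3k8, a kinase that the Nfkb1 precursor holds stable, was lower with TNF (1.78 ± 1.03 against 4.49 ± 0.383 CPM, log2 fold change -1.34, adjusted p = 1.03e-05), with TGFb1 (5.22 ± 0.943 against 12.6 ± 0.998 CPM, log2 fold change -1.27, adjusted p = 4.93e-07) and with CHIR without TGFb1 (3.87 ± 0.562 against 12.6 ± 0.998 CPM, log2 fold change -1.69, adjusted p = 6.55e-09).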
